A study of Homo sapiens with 6 samples.

Results

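Oxidative phosphorylation is the pathway by which mitochondria pass electrons from NADH and succinate through respiratory complexes I to IV to oxygen and use the resulting proton gradient to make ATP in complex V. Most of its subunits are encoded in the nucleus, and 59 such genes were examined: 33 of complex I, 4 of complex II, 6 of complex III, 9 of complex IV, 6 of complex V, and CYCS, which encodes the mobile electron carrier cytochrome c. They were chosen by name as known subunits of these complexes. All 59 were found among the 27576 genes of the deposited table, and all 59 passed the filter applied to every gene, 3 or more libraries with a value of 1 or more.

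The RNA came from Kasumi-1, an established human acute myeloid leukaemia line with the t(8;21) translocation, which joins RUNX1 to RUNX1T1. All cells were grown in RPMI1640 with 20% fetal bovine serum. The control group received 0.5% bovine serum albumin (BSA) and the other group 10 ng/ml of recombinant human interleukin-10 (IL-10), a cytokine that signals through STAT3, for 72 h, with 3 libraries in each group. Nothing in the labels says that the replicates came from separate cultures, so each p-value refers to the spread among these libraries, and that spread may be technical.

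Leukaemic stem and progenitor cells are known to depend strongly on mitochondrial respiration. Complex I (NADH dehydrogenase) holds catalytic core subunits and a shell of accessory subunits that support its assembly and stability. The nuclear genes are known targets of the factors NRF1, GABP (which binds ETS sites) and YY1, while the remaining subunits are made from mitochondrial DNA.

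The promoter sequence of 2 members is shown because NDUFB4 was higher in every IL-10 library and COX6A1 had the largest fold change of the 59, and because each holds the NRF1 core. The sequences are from RefSeq on GRCh38.p14, 5′ to 3′ on the plus strand, which is the strand of both genes. They lie at chr3:120596136-120596255 for NDUFB4, bases 200 to 81 before its RefSeq start, and at chr12:120437873-120437992 for COX6A1, bases 240 to 121 before its RefSeq start. The gene positions given with the values are those of GENCODE 29, whose starts differ: the same stretches lie 173 to 54 and 217 to 98 bases before them. Neither stretch overlapped a GENCODE 29 gene. Capitals mark CGCATGCG.
NDUFB4: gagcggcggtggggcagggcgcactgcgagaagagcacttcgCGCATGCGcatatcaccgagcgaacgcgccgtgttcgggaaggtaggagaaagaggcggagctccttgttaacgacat
COX6A1: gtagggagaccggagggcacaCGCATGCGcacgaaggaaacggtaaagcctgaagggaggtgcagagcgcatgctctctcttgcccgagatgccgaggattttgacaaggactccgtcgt

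Promoter windows of 250 bases before to 50 after the RefSeq start were matched for 49 of the 59 genes. ATP5F1D, NDUFS5, NDUFB9, NDUFC2, NDUFB5, UQCRB, CYC1, ATP5F1B, SDHC and COX6C had no entry. The NRF1 core CGCATGCG, which reads the same on both strands, stood in 8 of the 49 (16.3%), against 2.46% of all 27305 genes with a window. The ETS core CCGGAAG, or CTTCCGG on the other strand, stood in 14 (28.6%, against 12.2%). The YY1 core AAGATGGC on either strand stood in 10 (20.4%, against 3.52%), and any of these motifs in 28 (57.1%, against 16.7%). SDHD and COX6A1 held both the NRF1 and the ETS core, and COX8A, COX4I1 and SDHB held the ETS core. None of the 34 matches in the members' windows overlapped a match of another motif. A match is a description of the letters only.

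Recovered depth was 20750115 to 24222897 reads per library. The identity genes of the line were present in all 6 libraries, KIT at 29296 to 54533 and MPO at 66945 to 160649 normalised reads. IL-10 replicate 2 stood apart from the other 5 libraries, and the log2 fold changes of members described singly are given with and without it. Leaving it out keeps control replicate 2, the library of the same number, so those values are not balanced by replicate. They can differ from the ratios within replicates 1 and 3. Of 8 liver genes, all 8 were above 0 in the replicate 2 library of each group, while 5 of the 8, the same number in each of the other 4 libraries, were at 0. Without SERPINA1, which is also expressed in myeloid cells, the liver genes summed to 548 (control replicate 2) and 284 (IL-10 replicate 2), against 13.9 to 23.1 elsewhere. The 3 nuclear-retained RNAs found of 4 listed summed to 5918 in IL-10 replicate 2, 10625 in control replicate 2 and 16773 to 19451 elsewhere. Markers of T and NK cells (5 genes) summed to 1696 to 2455 in control and 1817 to 2703 with IL-10. Those of B cells (4) summed to 1081 to 1233 and 1162 to 1761, and those of fibroblast, endothelial and epithelial cells (7 found of 9) to 1880.5 to 1967 and 1617 to 1976. EPCAM made up most of that last sum, at 1487 to 1942. The epithelial keratin KRT8 was at 156 and 87.0 in the replicate 2 libraries of the control and IL-10 groups, against 4.28 to 11.2 elsewhere. KRT18 was at 19.9 and 11.8 there, against 0 to 1.07 elsewhere. The part of epithelial transcripts in the values below was not tested.

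Most members were abundant. Per kilobase of the principal transcript, their median was 2002 normalised reads, at percentile 97.1 of all genes, with a range from 20.7 (NDUFA9) to 18239 (ATP5F1B). Together they took 0.912% of all reads in IL-10 replicate 3 (Wilson 95% interval 0.908% to 0.916%), the lowest share, and 1.04% in IL-10 replicate 2 (1.04% to 1.05%), the highest. The shares in the other 4 libraries were 0.924% to 0.975%. These intervals cover counting error only, and the fewest reads that any member had in a library was 29.

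The design sets IL-10 against control at a single time, 72 h. None of the 59 members passed the threshold of an adjusted p under 0.05 in limma (adjusted p = 0.982 to 0.998), and of all 21946 genes tested 0 passed (0%). No member had an unadjusted p under 0.05, against 344 of all genes and 8 of the 11604 with a mean of at least 50. The smallest unadjusted p of a member in limma was 0.105. edgeR and DESeq2 on the recovered reads also called 0 genes, each with 80 at an unadjusted p under 0.05, none of them a member. Fitted log2 fold changes of the members ran from -0.28 (NDUFV2) to 0.46 (COX6A1), with 50 of 59 positive and a median of 0.14, beside 52.0% positive and a median of 0.02 over all genes tested, and 58.8% and 0.05 over the 11604 of them with a mean of at least 50. Positive members numbered 33 when every library was scaled to the same total, which moved the median of all genes to -0.08, and 38 after quantile normalization. In these bulk samples, fewer cells of a type and less RNA per cell cannot be told apart.

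Without IL-10 replicate 2, and with control replicate 2 kept, 29 of the 59 members were positive and the median was -0.00071. In that fit 31 members had the opposite sign to that with all libraries. The members' median log2 ratio of IL-10 to control was 0.07, 0.36 and -0.01 in pairs 1 to 3, where a pair is the control and IL-10 library of the same replicate number. A fit of pairs 1 and 3 only, with the replicate number as a block, had 42 of the 59 members positive and a median of 0.03. In it 22 members changed sign, and 50.2% of all genes tested were positive, with a median of 0.0005. The largest of a member's 3 ratios, in absolute value, was in pair 2 for 53 of the 59. In pair 2, 16 members differed by 1.5-fold or more, 14 of them upward, against 0 members in pair 1 and 0 in pair 3. In the same pair, 45.0% of all genes tested and 35.2% of those with a mean of at least 50 differed as much, against 27.1% of the members. Upward differences of that size were found in 22.3%, 21.8% and 23.7%, and the share of the members is close to these backgrounds. Positive ratios were found in 49, 49 and 24 of the 59 members in pairs 1 to 3, beside 50.3%, 51.2% and 50.4% of all genes. In all, 17 members (28.8%) were positive in all 3 pairs, beside 12.4% of all genes and 13.6% of those with a mean of at least 50.

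**Figure D1:**
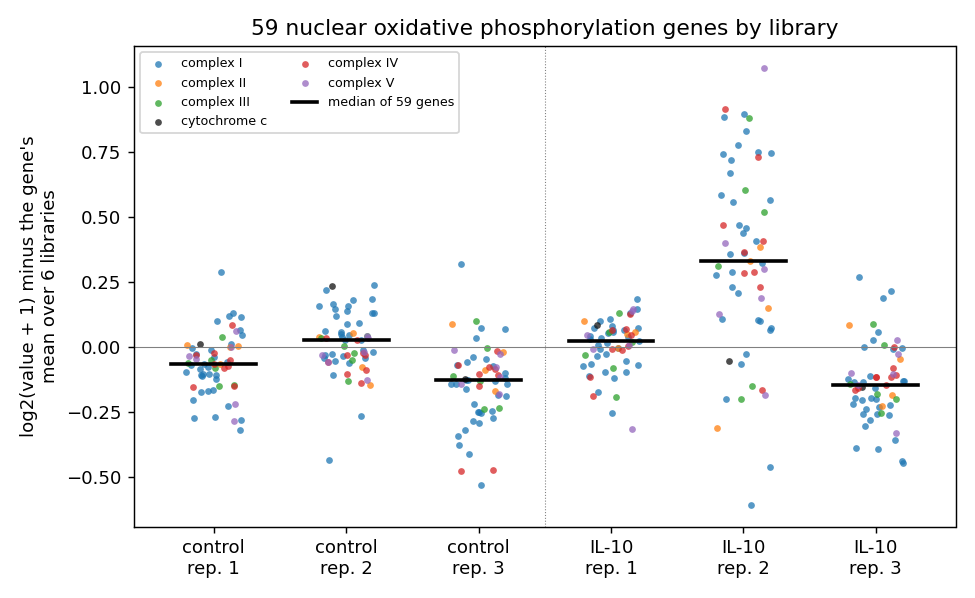
Each point is 1 of the 59 genes: the vertical axis is its log2(value + 1) minus its own mean over the 6 libraries, the horizontal axis the library, the colour its complex, and black bars are medians. The points of IL-10 replicate 2 spread widest and mostly lie above 0, while 24 genes had their lowest value in IL-10 replicate 3 and 18 in control replicate 3.

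The 95% intervals set bounds on what these libraries could have missed. The median interval of a member extended 0.44 log2 units each way, beside 0.72 for all genes tested and 0.49 for those with a mean of at least 50. A 2-fold rise lay outside the interval of 54 of the 59 members and a 2-fold fall outside that of all 59. A 1.5-fold rise was outside the interval of 30 members. These intervals come from the fit without pairing. With the replicate number as a block the median interval was 0.35 log2 units each way, a 2-fold rise was outside all 59, and 2 intervals did not cover 0, those of NDUFA3 and COX6A1 (both with an adjusted p of 0.851 in limma).

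**Figure D2:**
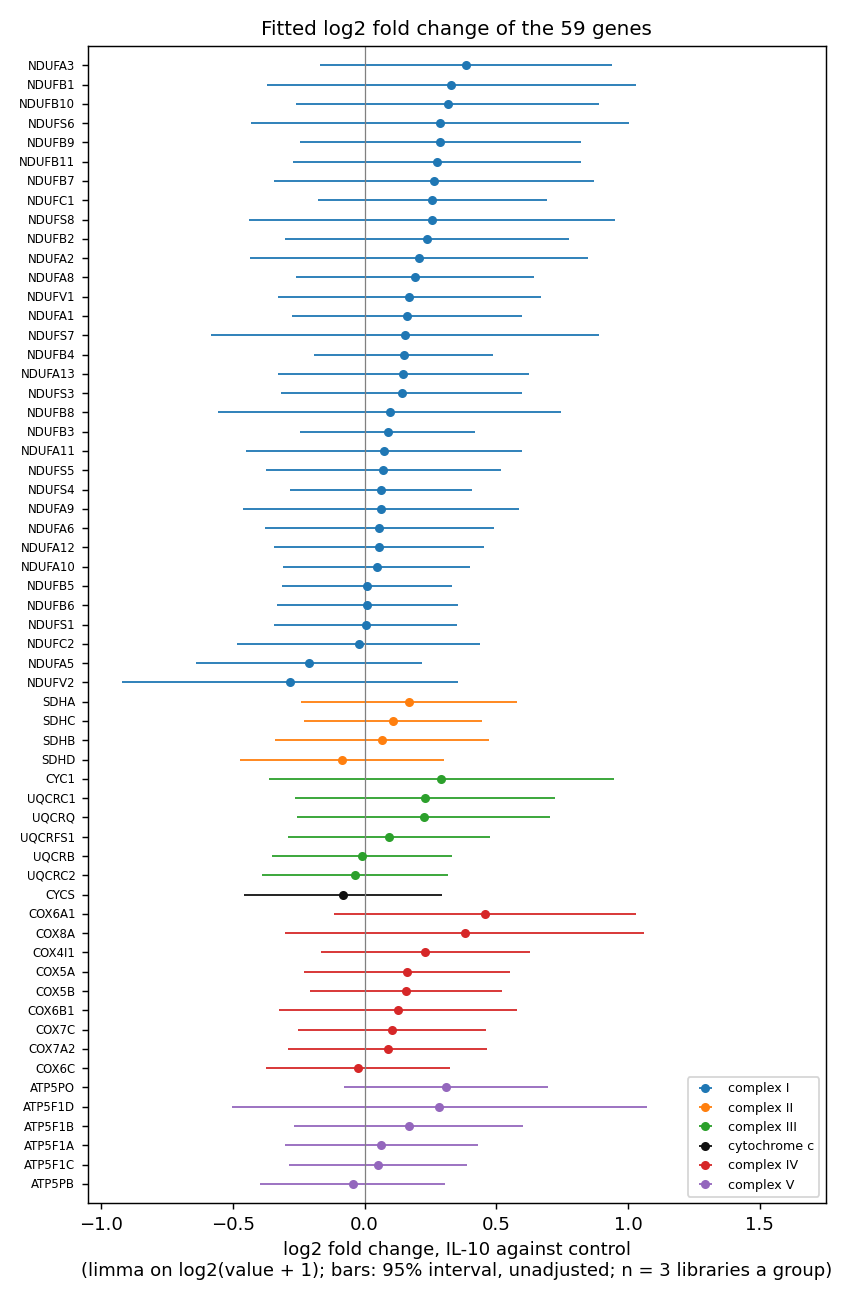
Points are the fitted log2 fold changes of the 59 genes (horizontal axis, IL-10 against control, n = 3 libraries a group), grouped by complex, with unadjusted 95% intervals as bars, from the fit without pairing. All 59 intervals cover 0, and the points run from -0.28 (NDUFV2) to 0.46 (COX6A1).

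Complex I, which oxidises NADH, had 30 of the 33 nuclear genes examined positive, with a median log2 fold change of 0.15 and 0 past the threshold. Its pair medians were 0.08, 0.36 and -0.01 in pairs 1, 2 and 3. NDUFS5 (ENSG00000168653; GRCh38 chromosome 1, 39026318 to 39034636, plus strand), an accessory subunit, had the highest level of the 33 at 11048 normalised reads per kilobase. Its values were 5562, 6718 and 5349 in control replicates 1 to 3 and 6017, 7670.4 and 5010.1 in IL-10 replicates 1 to 3. The groups overlapped, with IL-10 replicate 3 the lowest and IL-10 replicate 2 the highest library. Its log2 fold change was 0.07 (95% interval -0.38 to 0.52), and -0.09 without IL-10 replicate 2.

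NDUFB4 (ENSG00000065518; chromosome 3, 120596309 to 120602500, plus strand), an accessory subunit of the membrane arm, was 1 of 2 members whose groups did not overlap. It stood at 3945, 4108 and 4099.7 in control replicates 1 to 3 and 4242, 5005 and 4265 in IL-10 replicates 1 to 3. Every IL-10 library was above every control library, by little in replicates 1 and 3. The log2 fold change was 0.15 (95% interval -0.19 to 0.49), with pair ratios of 0.10, 0.28 and 0.06, and 0.07 without IL-10 replicate 2. Across the 59 members, 2 had all IL-10 libraries above all control libraries, beside 2.85% of all genes tested, and 0 had them below, beside 3.02%. The share of members is close to that background.

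The largest complex I fold change was that of NDUFA3 (chromosome 19, 54102728 to 54109257, plus strand), another accessory subunit of the membrane arm. It stood at 1176, 1325 and 1069 in control and 1383, 2271 and 1183 with IL-10. The groups overlapped and replicate 2 was the highest library of each. Its log2 fold change of 0.39 (95% interval -0.17 to 0.94) became 0.11 without IL-10 replicate 2.

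NDUFB1 and NDUFB10, also of the membrane arm, were likewise highest in IL-10 replicate 2 and lowest in control replicate 3. NDUFB1 (chromosome 14, 92116122 to 92121917, minus strand) had 1088, 1325 and 821 in control and 1234, 2109 and 903 with IL-10, a log2 fold change of 0.33 (95% interval -0.37 to 1.03). NDUFB10 (chromosome 16, 1959508 to 1961975, plus strand) had 1247, 1484 and 1206 in control and 1403, 2452 and 1249.9 with IL-10, a log2 fold change of 0.32 (95% interval -0.26 to 0.89). In both genes the groups overlapped and IL-10 replicate 2 was far above the other 5 libraries. Without that library, but with control replicate 2 kept, the log2 fold changes were -0.0025 and 0.02. The ratios in pairs 1 to 3 were 0.18, 0.67 and 0.14 for NDUFB1 and 0.17, 0.72 and 0.05 for NDUFB10.

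NDUFS8 (chromosome 11, 68030617 to 68036644, plus strand), a core subunit that carries iron-sulfur clusters, was among the 3 members highest in IL-10 replicate 2. Its values were 1608, 2138 and 1629.9 in control and 1628, 3612 and 1620.3 with IL-10. Replicate 2 of each group was the highest and the other 4 libraries lay within a narrow range. The fold change of 0.26 (95% interval -0.44 to 0.95) became -0.13 without IL-10 replicate 2. Its ratios in pairs 1 to 3 were 0.02, 0.76 and -0.01.

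NDUFV2 and NDUFA5 had the lowest fold changes of the 59. NDUFV2 (ENSG00000178127; chromosome 18, 9102630 to 9134345, plus strand), a core iron-sulfur subunit of the NADH-oxidising module, stood at 64.3, 59.7 and 50.7 in control replicates 1 to 3 and 52.4, 34.1 and 59.8 in IL-10 replicates 1 to 3. Its lowest library was IL-10 replicate 2 and the groups overlapped, with a log2 fold change of -0.28 (95% interval -0.92 to 0.36) and pair ratios of -0.29, -0.79 and 0.23. Without that library the fold change was -0.05. NDUFA5 (chromosome 7, 123536997 to 123558255, minus strand), an accessory subunit of the peripheral arm, stood at 1356, 1469.8 and 1357 in control and 1434, 940.3 and 1292 with IL-10, with IL-10 replicate 2 again alone below the rest. The corresponding log2 fold change was -0.21 (95% interval -0.64 to 0.22), or -0.03 without that library. NDUFA9 (chromosome 12, 4649095 to 4694317, plus strand), also of the peripheral arm, had the lowest level of the 59 per kilobase, where its principal transcript of 8363 bases enters the divisor. It stood at 187, 166 and 150.4 in control and 187, 214 and 133 with IL-10, and its groups overlapped, with a log2 fold change of 0.06 (95% interval -0.46 to 0.59), or -0.08 without IL-10 replicate 2.

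The other 4 core subunits of complex I examined, NDUFS1, NDUFS3, NDUFS7 and NDUFV1, had log2 fold changes from 0.004 (NDUFS1) to 0.17 (NDUFV1), all 4 positive. Without IL-10 replicate 2 the values of the 4, in that order, were -0.03, -0.03, -0.18 and -0.08. Of the 20 accessory members not yet described, 19 were positive, from -0.02 (NDUFC2) to 0.29 (NDUFS6), with a median of 0.12. IL-10 replicate 2 was the highest library in 3 of the 4 and in 15 of the 20. Their levels ran from 42.7 normalised reads per kilobase (NDUFC2) to 4572 (NDUFS6).

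**Figure D3:**
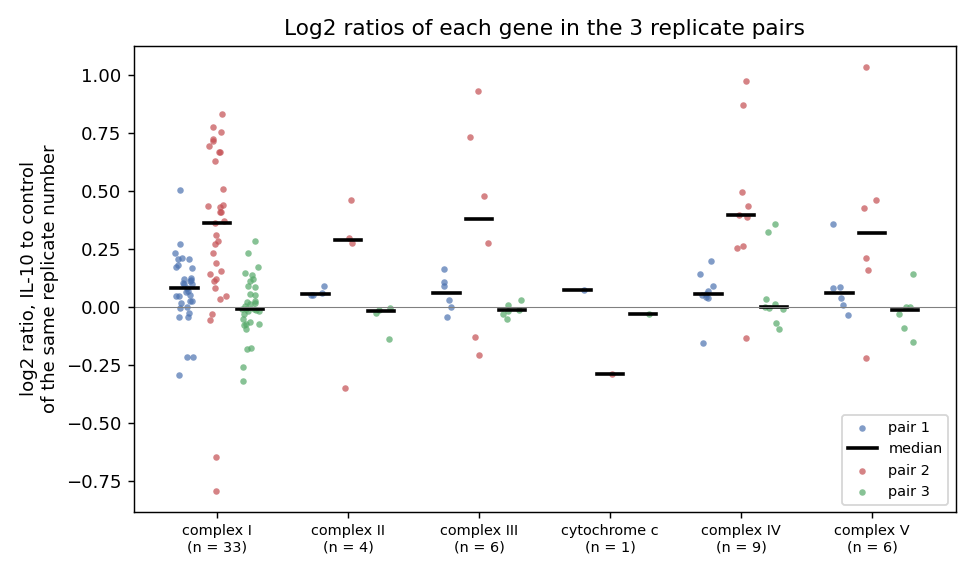
Each point is the log2 ratio of 1 gene between the IL-10 and control libraries of a replicate number (vertical axis), by complex (horizontal axis) and pair (colour), with medians as black bars. Pair 2 holds the wide spread and the higher medians in complexes I to V, at 0.29 to 0.40, while cytochrome c is at -0.29 there.

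Complex II, succinate dehydrogenase, links the tricarboxylic acid cycle to the chain, and 3 of its 4 genes were positive, with a median of 0.09 and pair medians of 0.06, 0.29 and -0.02. SDHB (chromosome 1, 17018722 to 17054170, minus strand), the iron-sulfur subunit, had the highest level at 2051 per kilobase. It stood at 2241, 2435 and 2209 in control and 2339.5, 2954 and 2007 with IL-10, with IL-10 replicate 2 the highest and IL-10 replicate 3 the lowest library. The log2 fold change was 0.07 (95% interval -0.34 to 0.47), and -0.08 without IL-10 replicate 2.

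The membrane anchors SDHC and SDHD differed in IL-10 replicate 2. SDHC (chromosome 1, 161314257 to 161375340, plus strand) had 1851, 1668 and 1820.3 in control and 1922, 2051 and 1789 with IL-10, and was highest there, with a log2 fold change of 0.11 (95% interval -0.23 to 0.45). SDHD (chromosome 11, 112086773 to 112120013, plus strand) had 1024, 1045 and 1082 in control and 1091, 820.4 and 1079 with IL-10, and was lowest there, with a log2 fold change of -0.09 (95% interval -0.47 to 0.30). Without IL-10 replicate 2 these were 0.06 and 0.05. SDHA, the flavoprotein subunit, was the member of the complex not yet named, with a log2 fold change of 0.17 (95% interval -0.24 to 0.58), or 0.02 without that library.

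Complex III passes electrons from ubiquinol to cytochrome c, and 4 of the 6 nuclear genes examined were positive. Their median was 0.16 and the pair medians were 0.06, 0.38 and -0.01. CYC1 (ENSG00000179091; chromosome 8, 144095027 to 144097525, plus strand), which encodes the haem-bearing cytochrome c1, had the highest level of the 6 at 10799.6 per kilobase. It stood at 11535, 12384 and 10858 in control replicates 1 to 3 and 11210.2, 23614 and 10748 in IL-10 replicates 1 to 3. IL-10 replicate 2 was far above every other library, and the remaining IL-10 libraries were within the control range or just below it. Its log2 fold change of 0.29 (95% interval -0.36 to 0.95) became -0.08 without IL-10 replicate 2.

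UQCRB (chromosome 8, 96225920 to 96235634, minus strand), which encodes the ubiquinone-binding protein, had the lowest level of the 6 genes at 702 per kilobase. Its principal transcript of 5575 bases enters that divisor, and UQCRFS1 was close at 703. Before division by length, UQCRQ had the lowest mean of the 6 at 823 normalised reads, while that of UQCRB was 3916. The values of UQCRB were 4018, 3844 and 3903 in control and 4280.4, 3518 and 3930.2 with IL-10, with IL-10 replicate 1 the highest and IL-10 replicate 2 the lowest. The log2 fold change was -0.01 (95% interval -0.35 to 0.33), and 0.06 without IL-10 replicate 2. The other 4 genes, UQCRC1, UQCRC2, UQCRFS1 and UQCRQ, had log2 fold changes of 0.23, -0.04, 0.09 and 0.22, and of -0.02, 0.05, -0.04 and 0.02 without it.

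CYCS (ENSG00000172115; chromosome 7, 25120091 to 25125361, minus strand), whose product also triggers apoptosis when it leaves mitochondria, was 1 of the 9 members with a negative fold change. It stood at 8227, 9615 and 7500.1 in control replicates 1 to 3 and 8671, 7868 and 7340.0 in IL-10 replicates 1 to 3. Replicate 3 was the lowest in each group and control replicate 2 was the highest library. The log2 fold change was -0.08 (95% interval -0.46 to 0.29), with pair ratios of 0.08, -0.29 and -0.03, and -0.07 without IL-10 replicate 2.

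Complex IV, cytochrome c oxidase, reduces oxygen, and 8 of the 9 nuclear genes examined were positive. Their median was 0.16 and the pair medians were 0.06, 0.40 and 0.0026. COX4I1 (chromosome 16, 85798633 to 85807044, plus strand), the ubiquitous form of a regulatory subunit, had the highest level of the 9 at 8252 per kilobase. It stood at 6426, 6710.4 and 6626 in control and 7371, 9469.9 and 6618 with IL-10, where IL-10 replicate 3 lay among the controls and IL-10 replicate 2 was highest. The log2 fold change was 0.23 (95% interval -0.17 to 0.63), or 0.08 without the latter.

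COX6A1 (ENSG00000111775; chromosome 12, 120438090 to 120440742, plus strand), the ubiquitous form of subunit 6A, had the largest fold change of the 59. It stood at 251, 239.7 and 189.5 in control replicates 1 to 3 and 277, 438 and 243 in IL-10 replicates 1 to 3. IL-10 replicate 3 lay below control replicate 1, so the groups overlapped. The fitted log2 fold change was 0.46 (95% interval -0.12 to 1.03), positive in all 3 pairs at 0.14, 0.87 and 0.36, and 0.20 without IL-10 replicate 2.

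COX8A (chromosome 11, 63974607 to 63976543, plus strand), the ubiquitous form of the smallest nuclear subunit, had the next largest of the complex. It stood at 574, 564 and 421 in control and 515, 1107 and 526 with IL-10. Control replicate 3 and IL-10 replicate 2 were the extremes and the other 4 libraries were close together. Its log2 fold change of 0.38 (95% interval -0.30 to 1.06) became 0.02 without IL-10 replicate 2. COX6C was the 1 gene of the 9 with a negative value, a log2 fold change of -0.02 (95% interval -0.37 to 0.32), or 0.05 without that library. The other 5, COX5A, COX5B, COX6B1, COX7A2 and COX7C, ran from 0.09 (COX7A2) to 0.16 (COX5A), and all 5 were highest in IL-10 replicate 2.

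Complex V, the ATP synthase, had 5 of the 6 nuclear genes examined positive. Their median was 0.12 and the pair medians were 0.06, 0.32 and -0.01. ATP5F1B (ENSG00000110955; chromosome 12, 56638175 to 56646068, minus strand), the catalytic beta subunit, had the highest level of all members per kilobase. It stood at 32166, 31903 and 30092 in control replicates 1 to 3 and 33098, 43916 and 30068 in IL-10 replicates 1 to 3. All libraries but IL-10 replicate 2 lay close together. The log2 fold change was 0.17 (95% interval -0.27 to 0.60), or 0.01 without that library.

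ATP5PO (ENSG00000241837; chromosome 21, 33903453 to 33915980, minus strand), the peripheral-stalk subunit known as OSCP, was the other member whose groups did not overlap. It stood at 265, 282 and 285 in control replicates 1 to 3 and 339.9, 379.6 and 314 in IL-10 replicates 1 to 3. The lowest IL-10 library, replicate 3, was above the highest control, also replicate 3. It had a log2 fold change of 0.31 (95% interval -0.08 to 0.70), with an adjusted p of 0.982 in limma, positive in all 3 pairs at 0.36, 0.43 and 0.14. It was 0.24 without IL-10 replicate 2.

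ATP5F1D (chromosome 19, 1241746 to 1244826, plus strand), a subunit of the central stalk, deviated most in IL-10 replicate 2. It stood at 2645, 3313 and 2837 in control and 2587, 6785 and 2558 with IL-10. The IL-10 libraries of replicates 1 and 3 were below every control library, while IL-10 replicate 2 was above every other. The fold change of 0.28 (95% interval -0.50 to 1.07) therefore had the opposite sign, -0.18, without that library. ATP5PB (chromosome 1, 111448864 to 111462773, plus strand), of the peripheral stalk, stood at 3578, 3509 and 3362 in control and 3796, 3012 and 3361 with IL-10, lowest in IL-10 replicate 2, with a log2 fold change of -0.05 (95% interval -0.40 to 0.31), or 0.04 without it. ATP5F1A and ATP5F1C, the alpha and gamma subunits, had log2 fold changes of 0.06 and 0.05, and of -0.02 and -0.00071 without it.

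In IL-10 replicate 2, members of high GC content stood higher than those of low GC content. Against the mean of the other 5 libraries, the members' median log2 difference was 0.40 in that library, with 48 of 59 above 0, beside a median of -0.02 over all genes and 0.10 over those with a mean of at least 50. It was the highest of the 6 libraries in 45 members and the lowest in 8, which were NDUFA5, NDUFB5, NDUFV2, SDHD, UQCRC2, UQCRB, COX6C and ATP5PB. ATP5F1D (1.29; GC 69.6%), COX8A (1.10; 58.6%) and NDUFS8 (1.08; 63.3%) had the largest log2 differences there. NDUFV2 (-0.73; 47.5%), NDUFA5 (-0.55; 36.4%) and SDHD (-0.37; 41.0%) had the smallest.

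Across the 59 members, which share the library and are not independent replicates, the difference correlated with transcript GC content at a Pearson r of 0.73 and a Spearman rho of 0.76. The same values over 11575 genes of mean at least 50 were 0.73 and 0.77. The log2 ratios of pairs 1 and 3 had an r with GC of -0.12 and 0.03 over the members, but such a ratio cannot show a trend that both its libraries share. Set against the other 5, control replicates 1 to 3 had an r of -0.50, -0.12 and -0.42. IL-10 replicates 1 and 3 had -0.71 and -0.39. In each of these the other 5 include IL-10 replicate 2. The 29 members above the members' median GC had 29 positive fold changes and a median of 0.22, and the 30 at or below it had 21 and 0.06. With a correction for GC content and length, 46 of 59 members were positive and the median was 0.07. The part of GC content, RNA quality and the liver transcripts in these values was not tested beyond that correction.

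**Figure D4:**
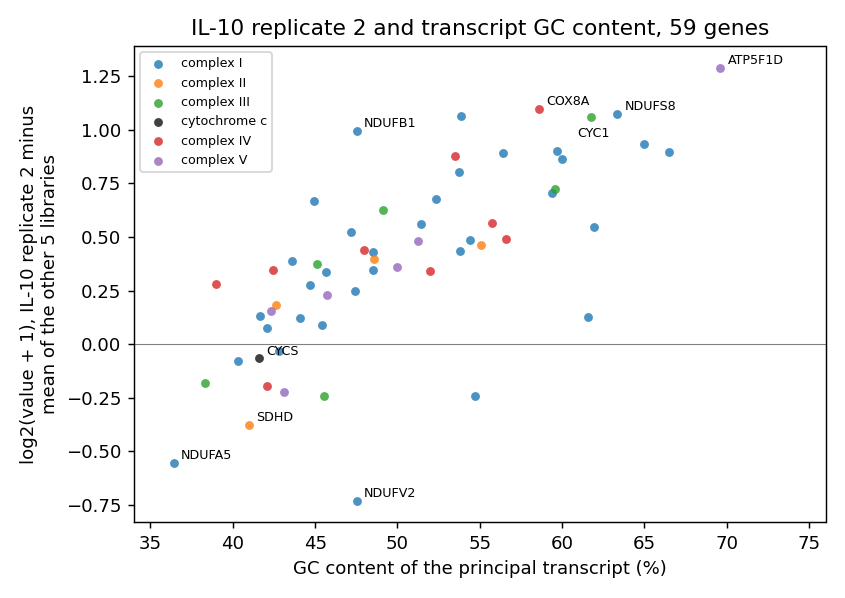
For each of the 59 genes, the vertical axis gives log2(value + 1) in IL-10 replicate 2 minus the mean of the other 5 libraries, the horizontal axis the GC content of the principal transcript in percent, and the colour the complex. The points run from NDUFA5 at 36.4% GC and -0.55 to ATP5F1D at 69.6% and 1.29, with NDUFV2 at -0.73 apart below them.

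The transcripts of several members share sequence with another annotated gene, which leaves their levels uncertain. In 6 members at least 40% of the 50-base words of the principal transcript also stood, on the same strand, in transcripts of another GENCODE 29 gene: NDUFV2 (82.0%), NDUFB8 (72.7%), ATP5PO (69.0%), NDUFA11 (63.9%), COX6A1 (44.0%) and NDUFA13 (41.3%). NDUFB8, NDUFA11 and NDUFA13, which encode accessory subunits of complex I, are named here after their values were seen. For COX6A1 the main partner was its pseudogene COX6A1P2. For NDUFV2 it was AP005263.1, a locus annotated as a processed transcript, and for the remaining 4 it was a gene annotated as protein coding.

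These 6 stood low. Their median level was 230 normalised reads per kilobase (57.5 to 478), against 2908 (413 to 18239) in the 22 members that share no word with another gene. Over the 59 members, log2 level and shared percentage had a Pearson r of -0.51 and a Spearman rho of -0.41. NDUFA9 and NDUFC2 were lower still, at 20.7 and 42.7 per kilobase, with shares of 14.5% and 16.8%. How reads that match several genes were counted, and whether strand was used, is not given in the sources used here, and the part of shared sequence in the low levels was not tested. NDUFV2, COX6A1 and ATP5PO, the members of the smallest and largest fold change and 1 of the 2 without overlap, are therefore uncertain. On the opposite strand, 80.0% of the words of NDUFB2, 43.1% of NDUFB11 and 40.7% of NDUFA1 stood in another gene, so their reads cannot be told from that gene's if strand was not used. Without the 6, the median log2 fold change of the members was 0.14, with 45 of 53 positive.

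**Figure D5:**
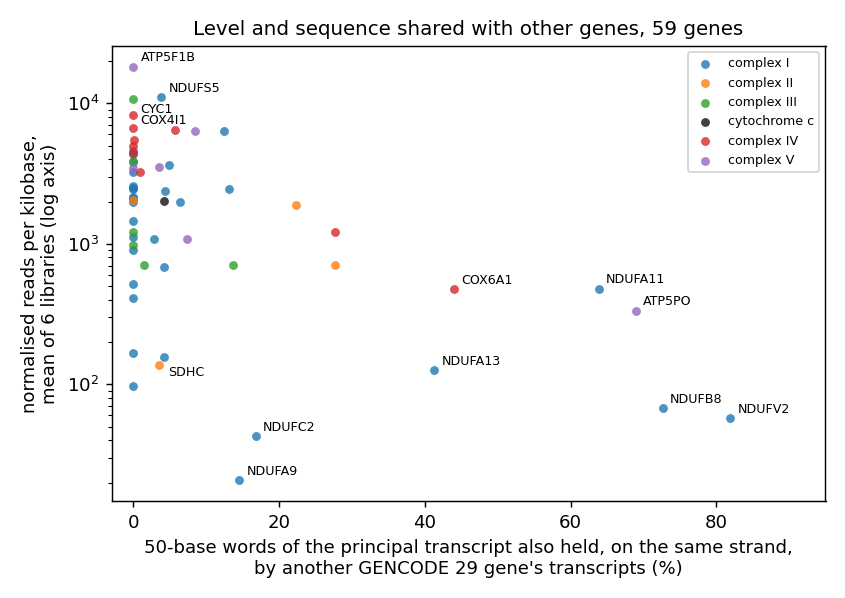
The vertical axis, logarithmic, gives the mean of the 6 libraries in normalised reads per kilobase of principal transcript, and the horizontal axis the percentage of its 50-base words held on the same strand by another gene, for the 59 genes coloured by complex. The 6 genes at 40% or more lie between 57.5 and 478, and most genes at 0 lie above them.

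The pathway's other genes were read from the same fit. The 22 other nuclear subunits tested had 20 positive, a median of 0.11 and 0 past the threshold. ATP5MC3 and ATP5MC2, which encode the membrane ring of ATP synthase, had the highest mean normalised reads before division by length, while UQCRH was the highest per kilobase at 10679. ATP5MC3 stood at 6514, 7133 and 5847 in control and 6815, 10339.6 and 6302 with IL-10. UQCRH of complex III and ATP5IF1, the inhibitor of ATP synthase, had groups that did not overlap, both higher with IL-10. These were 2 of the 22, beside 2.85% of all genes tested and 210 of the 11604 with a mean of at least 50. Their log2 fold changes were 0.13 (interval -0.19 to 0.46) and 0.20 (interval -0.15 to 0.56), and both intervals covered 0. UQCRH stood at 6206, 6264 and 5975 in control and 6851, 7049 and 6357 with IL-10, and ATP5IF1 at 2364, 2442 and 2363 in control and 2720.0, 3123 and 2456 with IL-10. The list's median was 0.0062 without IL-10 replicate 2, and 0.04 in pairs 1 and 3 with the replicate block.

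Assembly factors, which build the complexes, had 34 of 49 positive and a median of 0.09. LRPPRC, which stabilises mitochondrial messenger RNA, stood at 9622, 9273 and 9729.6 in control and 9978, 5824 and 9709.7 with IL-10, and NDUFAF8, a complex I factor, at 2183, 2741 and 1856 in control and 2445, 3905 and 1942 with IL-10. The first was lowest and the second highest in IL-10 replicate 2. The 13 subunits encoded in mitochondrial DNA, the partners of the members in complexes I, III, IV and V, had 11 positive and a median of 0.15. MT-CO1, the catalytic subunit of complex IV, stood at 273116, 225972 and 214988 in control and 262075, 290541 and 212931 with IL-10, and MT-CO3 at 91995, 85363 and 77646 in control and 95498, 108854 and 83101 with IL-10. Without IL-10 replicate 2 the medians of these lists were -0.0087 and -0.0031, and 0 genes of either passed the threshold. MT-ND4L, a complex I subunit named here after its result was seen, passed in the limma fit of pairs 1 and 3 with the replicate block. It was 1 of 13, beside 11 of all 20308 genes tested in that fit. Its log2 ratios were unequal, at 0.014 in pair 1 and 0.42 in pair 3. With all libraries and no block its log2 fold change was 0.25 (interval -0.20 to 0.69).

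Regulators of mitochondrial biogenesis had 7 of 12 tested genes positive and a median of 0.01, with 0 past the threshold. POLRMT, the mitochondrial RNA polymerase, stood at 4412, 6203 and 3954 in control and 4398, 12793 and 3747 with IL-10, and TFAM, which packages mitochondrial DNA and starts its transcription, at 4040.5, 4636 and 3865 in control and 4171, 3346 and 3630.1 with IL-10. Tricarboxylic acid cycle enzymes had 11 of 13 positive and a median of 0.12, and 0 passed. MDH2 stood at 5289.8, 5882 and 5231 in control and 5193, 10601 and 5089 with IL-10 and CS, citrate synthase, at 5853, 6298 and 5251 in control and 5861, 8063 and 5235 with IL-10. Without IL-10 replicate 2, and with control replicate 2 kept, these medians were -0.15 and -0.01. In pairs 1 and 3 with the replicate block they were -0.01 (5 of 12 positive) and 0.03 (10 of 13). Of 5 tissue-restricted isoforms in the table, 3 passed the filter. NDUFA4L2, a hypoxia-linked relative of a complex IV subunit, stood at 230.1, 272 and 233 in control and 204, 410.2 and 225 with IL-10, and COX6B2, the testis form, at 11.2, 6.96 and 8.01 in control and 5.34, 5.88 and 9.50 with IL-10.

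By likeness across the 6 libraries, 36 of the 59 members had a Pearson r of at least 0.9 with the members' median deviation, a description to which each member contributes. NDUFA8, UQCRQ and UQCRFS1 were the most alike, at 0.998, 0.996 and 0.990, and SDHD, UQCRC2 and NDUFV2 the least, at -0.90, -0.88 and -0.84. In all, 11 members had a negative r. Against the other 5 libraries, the members' median log2 difference was 0.40 in IL-10 replicate 2 and -0.17 to 0.03 elsewhere. The r therefore depends heavily on that library, and its share over all genes was not computed.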

How the data were processed

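The authors deposited 1 table of 27576 Ensembl genes in 6 libraries. Its name says FPKM. The authors deposited a normalised signal instead, each library's read counts after division by a size factor (0.851 to 1.12), as the values show: all of them (100%) were multiples of a single step, to within 0.01 read, whatever the gene's length. RNA was taken with Trizol and libraries were made with a TruSeq kit, per the labels' protocols. GRCh38, hg38 and edgeR 3.18.1 are listed in the submitters' processing notes without a role. Which aligner, counter, annotation and strand setting were used is not given in the sources used here.

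Gene names came from a table that matched 26883 identifiers. GENCODE 29 matched 27052 and gave GRCh38 coordinates, principal transcripts, GC content and length. Promoter windows are from RefSeq (GRCh38.p14). Genes had to reach a value of 1 in 3 or more libraries, which left 21946. Their log2(value + 1) was fitted with limma 3.58.1 under R 4.3.3, using its trend option and a two-sided test. A gene was called at a p under 0.05 after Benjamini-Hochberg adjustment over all genes tested. The pseudocount makes fold changes of low genes too small. The recovered reads were also tested with DESeq2 1.42.0 and with the quasi-likelihood test of edgeR 4.0.16. The plan had allowed for raw counts or depth-normalised values, and the step of control replicate 2 (0.994) lay so close to 1 that edgeR was also run without it. The fits were tested on simulated independent libraries, without pairing and with changes far larger than those of the members. The GC correction was tested on a simulated GC trend in a single library. These simulations do not cover small changes or paired replicates. Members and lists were chosen with earlier results of these data known.

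Genes described singly are, per complex, the members highest and lowest per kilobase, the 5 largest and 5 smallest fold changes, members whose groups do not overlap, the 3 highest and 3 lowest in IL-10 replicate 2, and up to 2 of highest mean in other lists. Libraries of the same number deviated together from their group means, with correlations of 0.37, 0.61 and 0.73 over 11605 genes of mean at least 50. Those of different number had correlations of -0.69 to 0.21. Deviations from a group mean cancel out within each gene, so positive same-number values bring negative ones elsewhere. The negative values are not separate evidence of pairing. Because of the same-number values, replicate numbers were taken to pair the samples in the pair ratios and the replicate block, while the main fit did not pair them. Alternatives were other pseudocounts, filters and scalings, library weights, a replicate block, a GC and length correction, and leaving out each library.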

Additional observations from a re-analysis of the deposited data

How the results depend on the processing

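The count of members past the threshold was 0 in all 23 alternatives, and the count of all genes was 0 in 22 of them. In the remaining one, a fit of pairs 1 and 3 with the replicate block, 11 genes passed (10 higher, 1 lower) and 0 of them were members, while 1 was a mitochondrial-encoded subunit, MT-ND4L (smallest adjusted p of a member 0.552 in limma); that fit has 4 libraries. With the replicate block and all 6 libraries, 0 genes passed, 512 had an unadjusted p under 0.05 (2 of them members), the median stayed at 0.14, and no member's call changed. Members with an unadjusted p under 0.05 numbered 8 in pairs 1 and 3 with the block, beside 860 of all 20308 genes tested. They numbered 7 with the block and the GC content and length correction, beside 900 of 21946. With library weights there were 3, beside 2519 of 21946. Without IL-10 replicate 3 there were 2, beside 469 of 21286, and in edgeR with the block 1, beside 199 of 15728. The other 17 alternatives had 0. Of the settings with such members named here, only library weights gave members a lower share than all genes. The members' median log2 fold change was 0.14 with all libraries and 0.04 with equal totals (33 of 59 positive), which moved the median of all genes from 0.02 to -0.08. It was 0.06 with quantile normalization (38 positive) and with library weights (49), 0.07 with the GC content and length correction (46), 0.03 in pairs 1 and 3 with the block (42), 0.14 in edgeR and 0.15 in DESeq2. Leaving out 1 library gave 0.12 to 0.16 for the controls and -0.00071 to 0.24 for IL-10, the lowest without IL-10 replicate 2. Of 1357 comparisons of a single member with an alternative, 187 changed sign, 31 of them without IL-10 replicate 2, and 11 members kept their sign throughout. edgeR without control replicate 2 and the GC content and length correction without IL-10 replicate 2 (median -0.02, 23 positive) were chosen after seeing the data. The cause of these shifts was not tested. Depth limits the lowest members most, since the fewest reads of a member in a library was 29.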
